A study of Drosophila melanogaster with 24 samples.

Results

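On arrays with a grid of 105 rows and 215 columns of spots, 44 spots (0.195% of all) had their highest signal in the proboscis alone. They were chosen by 3 conditions on the normalised signal, the log2 of the background-subtracted signal plus 50, quantile normalised over the 24 samples. Before quantile normalisation, a difference of 1 on this scale is a doubling of bright signals and understates the change of dim ones. Quantile normalisation then sets each value by its rank within its sample, so a difference of 1 need not be a doubling of net signal. All 8 proboscis values had to lie above all 16 values of the first legs and antenna, the proboscis mean had to exceed the next tissue mean by at least 0.7, and that gap had to be larger than the difference between the first legs and antenna means. The first condition was met by 75 spots (0.332% of all spots), 73 of them also met the third, and 29 of the 73 had a gap under 0.7. The signals themselves selected the spots, so their tissue differences are given as a description with no test.

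The samples came from fruit flies (Drosophila melanogaster) taken 1 to 2 hours after eclosion, when the adult leaves its pupal case. The 6 groups, of 4 samples each, were male proboscis, female proboscis, male first legs (from the distal tibia outward), female first legs, male antenna (the outer segment with the arista) and female antenna. The series text names the isogenic line WI89, and the descriptions label every sample RIL 58 or RIL 89, with 2 samples of each number in every group. No treatment or mutation is given for any group. The labels do not say whether replicates came from separate flies, so every p-value is set against the spread between these samples alone, and that spread may be technical.

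The proboscis is the feeding appendage of the fly. Its tip, the labellum, carries taste bristles and taste pegs whose neurons detect sugars, bitter compounds, salts and water, and muscles in its shaft extend it and pump food through the pharynx. The legs also carry taste bristles, and the antenna is mainly an organ of smell and hearing. In such dissected parts, more cells of a type and more RNA per cell cannot be told apart. No gene or sequence is paired with a spot in the files, so spots are given by number and by row and column on the grid. No role can be given to any of them, and no marker of a tissue could be looked up.

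Each sample was 1 dye channel of 12 arrays. The median net signal over all spots was 102 to 148 in the 12 Cy3 samples and 16.1 to 62.9 in the 12 Cy5 samples, beside median local backgrounds of 47.3 to 65.7. The arrays fell into a set of 8, whose channels correlated across spots at 0.599 to 0.723, and a set of 4, at 0.846 to 0.973. This division was seen in the data and is not in the labels. It touches the sex comparison, because the male proboscis was in Cy3 and the female in Cy5 in the set of 8, and the reverse in the set of 4. The net signal of the 44 spots was above the local background at 43 or 44 of them in each proboscis sample, and in the other tissues at all 44 in each Cy3 sample but at 8 to 30 in each Cy5 sample, where dim spots are measured least well.

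The 44 spots ranged widely in brightness. Their proboscis means ran from 7.32 to 13.10 with a median of 8.70, where the median of all spots was 6.86. The proboscis mean of 42 spots lay above the 90th percentile of all values (7.60) and that of 9 above the 99th (9.93). Their means ran from 6.52 to 11.39 in the first legs and from 6.496 to 10.92 in the antenna. At 15 spots neither of these tissues reached the upper quartile of all values (7.14), so the signal was near the level of most spots outside the proboscis. At another 15 the next tissue exceeded the 90th percentile. Both other tissues did so at 10 of these 15, and at the other 5, spots 14031 and 13891 among them, only the next tissue did.

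**Figure D1:**
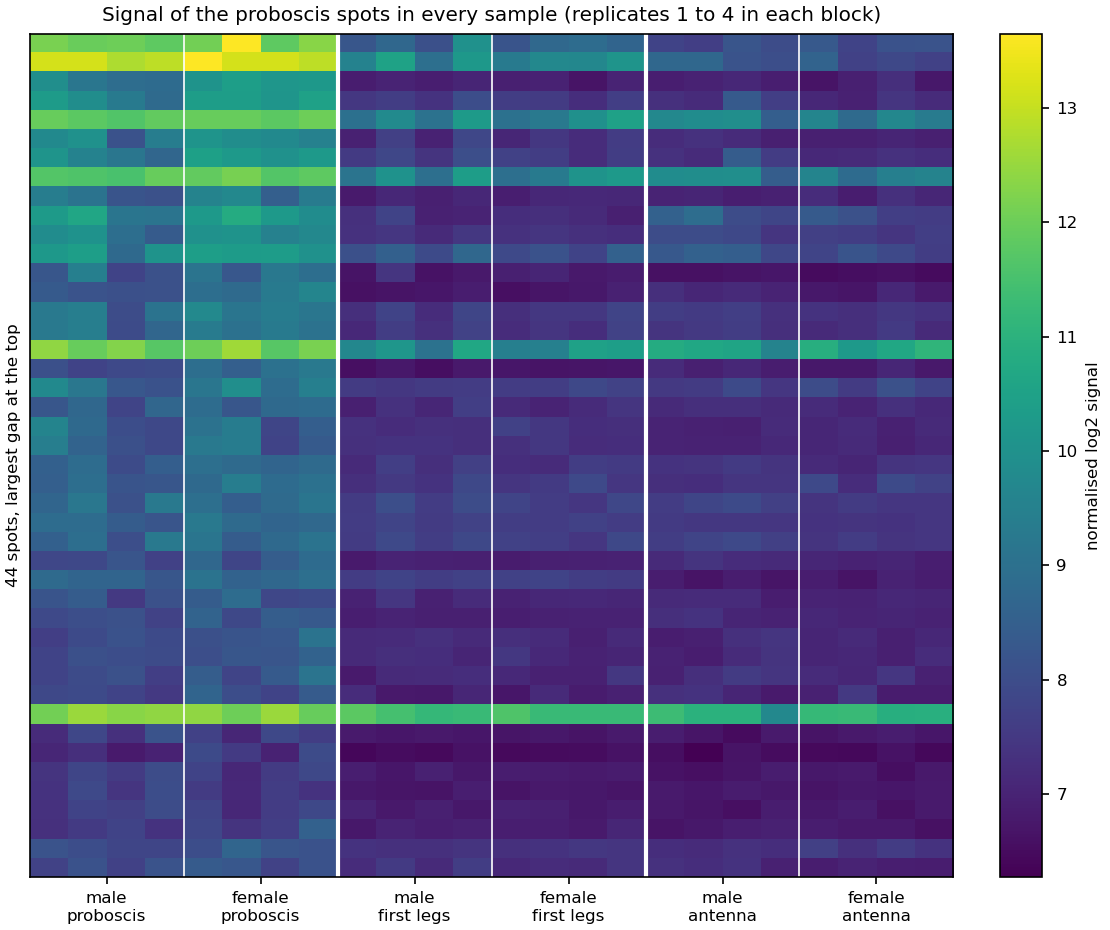
Normalised log2 signal of the 44 spots (rows, largest gap at the top) in the 24 samples (columns, replicates 1 to 4 within each group). The 8 proboscis columns are brighter than the other 16 in every row, as the choice of spots requires, and a few rows are also bright in the first legs and antenna.

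The gap between the proboscis and the next tissue had a median of 1.25 on the log2 scale and ran from 0.73 to 3.54. It was under 1 at 13 spots, from 1 to 2 at 23 and at least 2 at 8. The same conditions applied to the other tissues kept 113 spots for the first legs and 134 for the antenna, with median gaps of 1.34 and 1.32 and largest gaps of 4.01 and 5.62. The proboscis thus had the fewest spots of its own, with gaps whose median was near those of the other sets. These counts were not tested against each other.

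**Figure D2:**
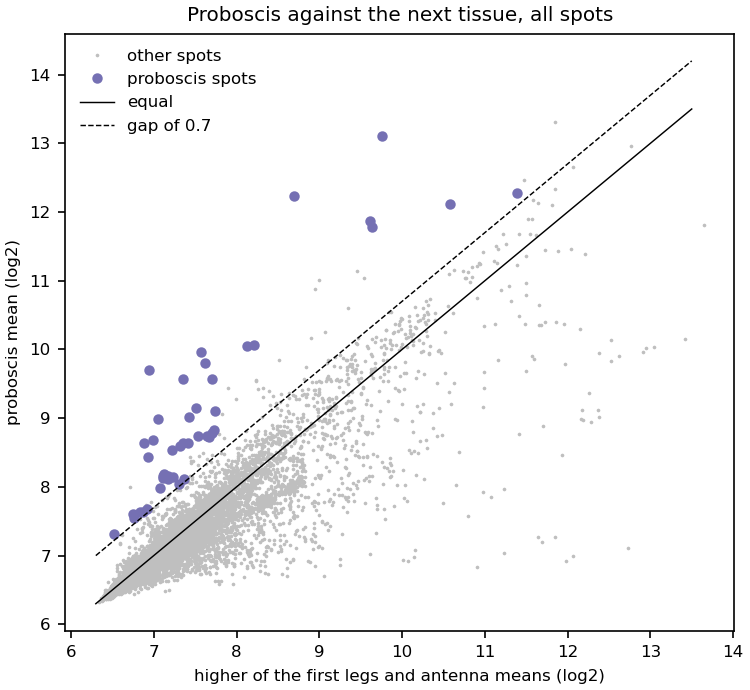
Mean proboscis signal (vertical) against the higher of the first legs and antenna means (horizontal), both normalised log2, for all spots. The 44 proboscis spots lie above the dashed line of a gap of 0.7. Other spots above that line failed another condition.

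Spot 14508 (row 68, column 103) had the largest gap, 3.54. Its values were 12.17, 11.97, 12.03 and 11.83 in male and 12.07, 13.64, 11.83 and 12.34 in female proboscis. In the first legs they were 8.26, 8.75, 8.08 and 10.002 in males and 8.18, 8.76, 8.89 and 8.67 in females. The proboscis samples thus stood well apart from the legs, among which male replicate 4 was high. In the antenna the values were 7.77, 7.65, 8.22 and 7.98 in males and 8.32, 7.76, 8.14 and 8.17 in females. Before normalisation its net signal was 2108 to 9638 in the proboscis, 131 to 556 in the first legs and 74.2 to 398 in the antenna, so the proboscis was apart in the scanner values too, while the first legs and antenna overlapped.

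Spot 6078 (row 29, column 58) had the second largest gap, 3.35, and the highest proboscis mean. Its values were 13.16, 13.16, 12.74 and 12.90 in male and 13.64, 13.16, 13.16 and 12.90 in female proboscis. Values recur because quantile normalisation gives every sample the same set of values, so that those of the very brightest spots are set by rank. In the first legs the spot had 9.54, 10.51, 8.98 and 10.20 in males and 9.29, 9.72, 9.69 and 10.08 in females. The antenna had 8.75, 8.73, 8.17 and 8.06 in males and 8.63, 7.70, 7.88 and 7.69 in females. The 3 tissues formed 3 separate levels, since the lowest leg value lay above the highest antenna value. Its net signal was 2927 to 15205 in the proboscis, 411 to 2124 in the first legs and 87.1 to 461 in the antenna.

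The next brightest member, spot 11774 (row 55, column 164), was of another kind, with a proboscis mean of 12.28 ± 0.24, a first legs mean of 11.39 ± 0.21 and an antenna mean of 10.92 ± 0.51 (SD, n = 8 each). Its lowest proboscis value, 11.93, was only 0.15 above its highest value elsewhere, 11.78. Such small margins were common. The lowest proboscis value exceeded the highest other value by a median of 0.25, by less than 0.25 at 22 spots and by more than 1 at 5.

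Around the threshold the values changed gradually. Just inside were spots 15331 (row 72, column 66) and 4279 (row 20, column 194), with gaps of 0.73 and 0.74. Just outside were spots 14561 (row 68, column 156) and 15873 (row 74, column 178), both with a gap of 0.68. Their proboscis means were 8.04, 8.11, 7.70 and 7.72.

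The first legs and antenna were close to each other at most of these spots, as the third condition favours. Their means differed by less than 0.25 at 32 spots and by more than 0.5 at 5, and the first legs were the higher of the pair at 30 and the antenna at 14. The largest excess of the first legs over the antenna was 1.55, at spot 6078, followed by 0.85 at spot 14031 (row 66, column 56). At spot 14031 the values were 8.84, 8.65, 8.66 and 8.25 in male and 9.08, 8.59, 8.73 and 8.98 in female proboscis. The first legs had 7.60, 7.77, 7.61 and 7.71 in males and 7.69, 7.77, 7.62 and 7.55 in females, and the antenna 6.86, 6.67, 6.87 and 6.70 in males and 6.87, 6.68, 6.98 and 6.87 in females. The 3 tissues did not overlap, and the antenna lay near the median of all spots.

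The largest excess of the antenna over the first legs was 0.92, given as a first legs minus antenna difference of -0.92, at spot 13891 (row 65, column 131). There the values were 10.29, 10.64, 9.14 and 9.12 in male and 10.25, 10.81, 10.26 and 9.85 in female proboscis. The first legs had 7.30, 7.77, 6.95 and 7.01 in males and 7.24, 7.28, 7.17 and 6.94 in females, and the antenna 8.57, 8.92, 7.999 and 7.83 in males and 8.36, 8.11, 7.66 and 7.60 in females. Replicates 1 and 2 were above replicates 3 and 4 in each group but the female proboscis, where replicates 1 and 3 had nearly the same value. Spot 9768 (row 46, column 93) followed, with a difference of -0.65, and was bright in all tissues, at 12.12 ± 0.31 in the proboscis, 9.92 ± 0.59 in the first legs and 10.57 ± 0.47 in the antenna (SD, n = 8 each).

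**Figure D3:**
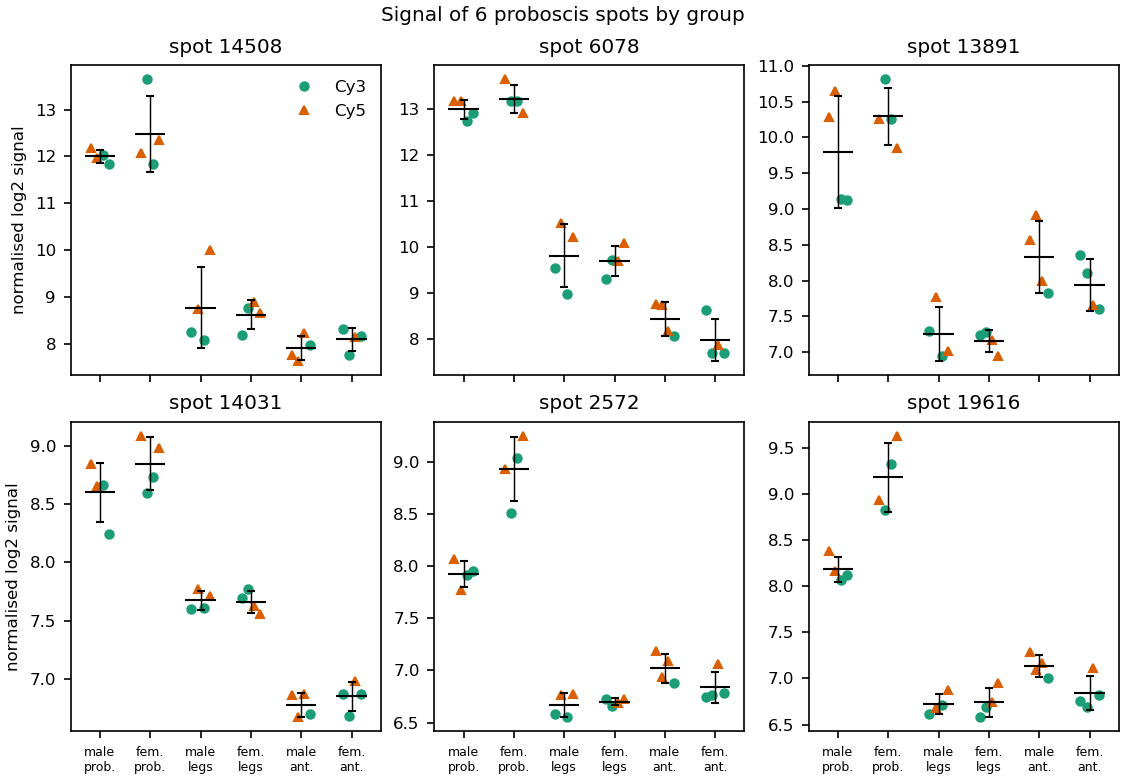
Normalised log2 signal of 6 spots by group (horizontal), with each sample as a point coloured by dye, the group mean as a line and the SD as bars (n = 4 each). The first 4 panels show spots picked for their tissue pattern, and the last 2 show spots 2572 and 19616, at which the 4 male proboscis values lie below the 4 female ones.

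Many of the spots came in pairs of near-identical behaviour. For each spot the nearest of all other spots over the 24 samples was found, by the root mean square difference of values. At 33 of the 44 the nearest spot was another of the 44. Of these, 20 formed 10 mutual pairs whose spots lay 16967 to 17078 places apart along the array. Across the 24 samples the spots of a pair correlated at 0.955 to 0.997 and had a root mean square difference of 0.0681 to 0.185 on the log2 scale. The other 13 lay at other distances from their nearest spot, with differences of 0.214 to 0.953 and correlations of 0.889 to 0.991, and held 2 more mutual pairs, spots 6078 and 14508 and spots 11085 (row 52, column 120) and 14690. The 44 spots are therefore not 44 independent profiles.

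The same distance recurred over the whole array. Among the 1405 spots whose SD over all samples was above 0.5, 346 (24.6%) had their mutual nearest spot within 100 places of a distance of 17000, a stretch that holds 0.890% of the other spots. The files do not say whether the spots of a pair carry the same sequence. Among the spots with an SD above 0.5, 489 were numbered low enough to have a partner at that distance. Of these, 173 (35.4%) had their mutual nearest spot there. Of the 12 members numbered as low, 10 had a partner among the 44. The closest spots at that distance to the other 2, spots 4279 and 5164, were spots 21336 (row 100, column 51) and 22162 (row 104, column 17), with gaps of 0.62 and 0.69 against 0.74 and 0.80. Neither met the first condition either, with an overlap between the proboscis and other samples of 0.07 and 0.43. Spots 5164 and 22162 were each other's nearest spot, but the nearest of all spots to spot 4279 lay 2599 places away. The pairs were looked for after the values were seen.

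The gaps within the 10 pairs are given as a description, since the pairs were found by their like values and both spots had met the same conditions. The largest difference of gap within a pair was 0.20, between spots 1278 (row 6, column 203) with 2.19 and 18326 (row 86, column 51) with 2.39. At spots 5284 (row 25, column 124) and 22251 (row 104, column 106) the gaps were 2.14 and 2.25, and at spots 2492 (row 12, column 127) and 19527 (row 91, column 177) they were 1.27 and 1.28. The smallest gaps of a pair, at spots 1357 (row 7, column 67) and 18401 (row 86, column 126), were 0.76 and 0.79.

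**Figure D4:**
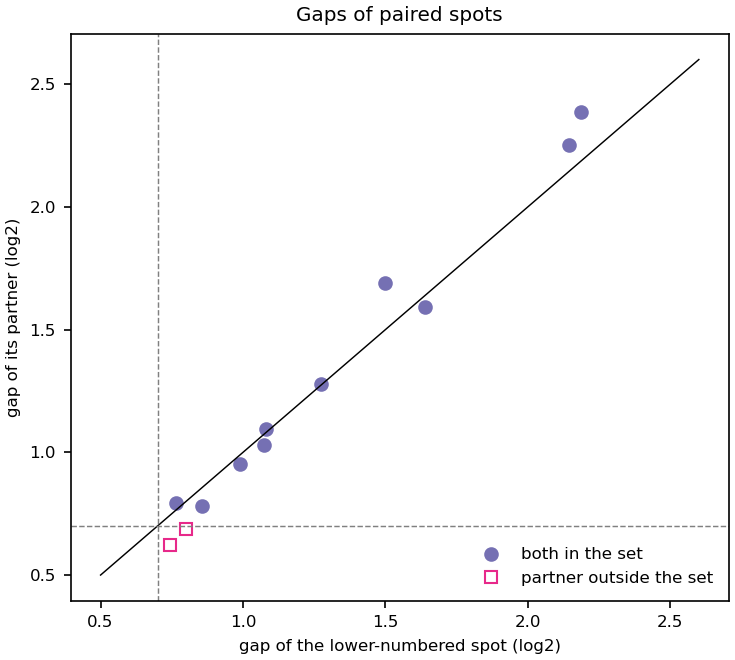
Gap between the proboscis mean and the next tissue mean (log2) at the lower-numbered spot of a pair (horizontal) and at its partner (vertical). The 10 pairs within the set lie along the line of equality, and the open squares show the 2 members whose partner, with gaps of 0.62 and 0.69, was outside the set. Dashed lines mark 0.7.

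The spots were otherwise spread over the array, from row 1 to row 104, with 23 in the left columns, up to column 107, and 21 beyond. None had another member as a direct neighbour. The median gap of the 8 or fewer spots around a member ran from -0.16 to 0.08 (median -0.02, as over all spots), so the surroundings did not share the proboscis signal. A quality mark was set at 1 member (2.27%), spot 88 (row 1, column 88), on 2 arrays, and at 1090 of all spots (4.83%). The median local background was 61.4 at the members and 61.2 over all spots.

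The spread between samples was mostly larger in the proboscis. The SD over 8 samples had a median of 0.42 in the proboscis, 0.17 in the first legs and 0.18 in the antenna, and the proboscis SD was the largest of the 3 at 38 of the 44 spots. The other 6 were all above the 90th percentile of all values in both other tissues. At dimmer signals the offset of 50 shrinks the SD, so the SDs of bright and dim tissues are not on equal terms. It was largest at the paired spots 19527 and 2492, at 0.69 and 0.68. At spot 22251, the steadiest, it was 0.12. Dye and array set moved with this spread. Relative to each spot's proboscis mean, the members lay lower by a median of 0.33 (-0.33) in the 2 Cy3 samples of the set of 8, both male, and higher by 0.23 in its 2 Cy5 samples, both female. In the set of 4 the same medians were 0.002 in Cy5, both male, and 0.07 in Cy3, both female. The lowest of the 8 proboscis values belonged to male replicate 3 at 17 spots and to male replicate 4 at 14, the 2 Cy3 samples of the set of 8. Without male proboscis replicate 3 the conditions kept 61 spots, all 44 among them, and when each sample was scaled to 1 median in place of quantile normalisation they kept 21, 20 of them among the 44.

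The gap was also computed within each dye, where the first condition already requires it to be above 0. Between samples of the same dye its median was 1.27 in Cy5 and 1.09 in Cy3, with 4 samples of each tissue in each dye, and it was at least 0.7 at 42 and 40 of the 44 spots. On 6 arrays a proboscis sample shared the glass with another tissue, and within each of them all 44 spots were higher in the proboscis channel, again as that condition requires. The median difference within an array was 1.72, 1.38, 1.71 and 1.54 for female replicates 1, 3 and 4 and male replicate 2, and 0.86 and 1.00 for male replicates 3 and 4, while the median over all spots lay between -0.02 and 0.02.

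Sex was not part of the choice of spots. The mean of the 4 male proboscis samples was below that of the 4 female ones at 39 of the 44 spots and above it at 5, with a median difference of -0.36 on the log2 scale. The test was limma's moderated test over all spots, with terms for group, RIL number, dye, array set and dye within array set, and the shared array as a random block. Its fitted male minus female difference, adjusted for these terms, was negative at 34 of the 44 spots and positive at 10, with a median of -0.33 against 0.002 over all spots. A single member passed after Benjamini-Hochberg adjustment (2.27%), lower in males, beside 3 of all spots (0.0133%). At an unadjusted p under 0.05, 18 members were lower in males (40.9%, against 1.75% of all spots) and 0 were higher (against 1.45%), where 3.21% of all spots passed in either direction. The members share profiles, so these 18 are not separate findings. The proboscis mean of 42 of the 44 lay above the 90th percentile of all values, and no share was computed for spots of like brightness.

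The shift was seen mainly in the set of 8 arrays. There the male minus female difference had a median of -0.69 and was negative at 40 of the 44 spots, with males in Cy3 and females in Cy5. In the set of 4, with the dyes the other way round, the median was -0.01 and 22 were negative. Over all spots the medians were -0.02 and 0.006. The sets also differed in the brightness of the proboscis samples. In the set of 8 their median net signal over all spots was 23.2 and 25.5 in females and 102 and 106 in males. In the set of 4 it was 148 and 139 in females and 54.6 and 62.9 in males. In the same set of 8 arrays the 113 spots highest in the first legs lay at -0.26 in Cy3 and 0.31 in Cy5 relative to their leg mean, in samples of both sexes in each dye. The 134 spots highest in the antenna lay at -0.216 in Cy3, in samples of both sexes, and at 0.125 in Cy5, in 3 male samples, relative to their antenna mean. In the set of 4 the leg spots lay at 0.11 in Cy5 (1 female sample). The antenna spots there lay at 0.04 in Cy3 (2 female samples) and 0.07 in Cy5 (1 female sample). Within the proboscis, sex is the product of dye and array set. From these 8 samples alone, sex and a dye effect that differs between array sets and tissues cannot be told apart.

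**Figure D5:**
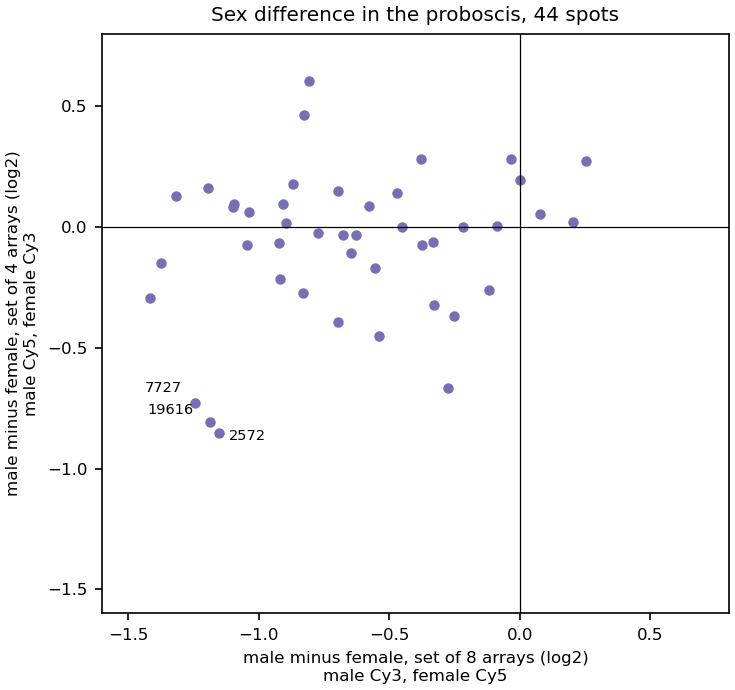
Male minus female difference in the proboscis (log2) of the 44 spots in the set of 8 arrays (horizontal, 2 males in Cy3 and 2 females in Cy5) and in the set of 4 (vertical, 2 males in Cy5 and 2 females in Cy3). Most points lie left of the vertical zero line and on both sides of the horizontal one, and spots 2572, 19616 and 7727 lie low on both.

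The member that passed was spot 2572 (row 12, column 207). Its values were 8.07, 7.77, 7.92 and 7.95 in male and 8.93, 8.51, 9.04 and 9.25 in female proboscis, which did not overlap. The fitted difference was -0.90 ± 0.13 (SE) with an adjusted p of 0.0251 in limma. Its difference was -1.15 in the set of 8 and -0.85 in the set of 4, each from 2 male and 2 female samples. In the set of 4, male replicate 1 (8.07) and female replicate 2 (8.51) were the 2 channels of 1 array. The limma adjusted p was above 0.05 in 7 of 18 other settings, among them 0.516 with sample quality weights, 0.716 in the set of 4 alone, and 1 with median scaling, cyclic loess or the array as a fixed block. It was also above 0.05 in 14 of 24 fits that each left out 1 sample, at 0.0511 to 0.162. It stayed below 0.05 without female proboscis replicate 1, 2 or 3, male proboscis replicate 1 or 2, male first legs replicate 4, female antenna replicate 1 or 2, or male antenna replicate 1 or 4, and was lost without any of the others. In the first legs it had 6.59, 6.76, 6.55 and 6.77 in males and 6.73, 6.66, 6.69 and 6.73 in females, and in the antenna 7.18, 6.94, 7.09 and 6.88 in males and 6.74, 6.77, 7.06 and 6.78 in females, with overlap in each.

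Its partner, spot 19616 (row 92, column 51), had 8.38, 8.16, 8.07 and 8.12 in male and 8.93, 8.83, 9.33 and 9.63 in female proboscis, again without overlap. The difference was -0.85 ± 0.16 (SE), but its limma adjusted p was 0.192. It was -1.19 in the set of 8 and -0.81 in the set of 4. Another, spot 7727 (row 36, column 202), had 9.92, 9.16, 8.91 and 8.87 in male and 10.06, 10.40, 10.14 and 10.20 in female proboscis, a difference of -0.95 ± 0.19 (SE) with a limma adjusted p of 0.296. These were the 3 members whose difference was below -0.5 in both array sets, a count met by 32 of all spots (0.142%), and the 3 whose male values all lay below the female ones (6.82%, against 0.846% of all spots). At 0 members did they all lie above the female ones (against 0.465%). They were singled out after their values were seen.

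Spot 5164 (row 25, column 4), second by p among those lower in males, had a difference of -0.77 ± 0.13 (SE) and a limma adjusted p of 0.0796. It was -1.04 in the set of 8 but -0.08 in the set of 4. Its limma adjusted p was 0.0046 without female proboscis replicate 3, 0.0358 without male proboscis replicate 2, 0.0104 with 1 dye effect for all arrays, 0.0464 without the RIL term and 0.0327 in the set of 8 alone. Among members with a positive fitted difference, the smallest p-values were at spots 22251 and 9768, with fitted differences of 0.41 ± 0.21 and 0.45 ± 0.26 (SE) and limma adjusted p-values of 1.00. The unadjusted male means, 11.81 and 12.10, were below the female means, 11.92 and 12.14. The fitted sign turned with 1 dye effect for all arrays, to -0.48 and -0.46, and when each sample was scaled to 1 median, to -0.14 and -0.17. Whether a sex difference of the proboscis was shared by the other tissues was tested by its difference from the mean sex difference of the first legs and antenna. No member passed and none of all spots did (0%), with 19 members (43.2%) and 1015 of all spots (4.5%) at an unadjusted p under 0.05 in limma. The median of this difference over the members was -0.41. That of the sex difference was -0.33 in the proboscis, 0.006 in the antenna and 0.02 in the first legs. The members were chosen to be lower in these other tissues, and the offset understates differences at dim signals. At members dim there, the test largely repeats the proboscis difference and cannot decide whether it was shared. The smallest limma adjusted p was 0.323, at spot 2572, where the difference was -0.84 ± 0.16 (SE). Without female proboscis replicate 2 it was 0.00981 and without male proboscis replicate 1 it was 0.0431, and 1 other member passed without female first legs replicate 3.

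In the other tissues no member passed the threshold for sex without a replicate block. In the antenna 0 of 44 passed in limma against 32 of all spots (0.142%), with 4 (9.09%) at an unadjusted p under 0.05 against 8.63% of all spots. The largest were 0.70 ± 0.21 at spot 13891 and -0.62 ± 0.19 (SE) at spot 9768, with limma adjusted p-values of 0.323 and 0.332. Male and female antenna samples of the same replicate number deviated together from their group means in all 4 pairs, with correlations of 0.152 to 0.497 over all spots. The replicate 2 samples, at 0.497, were the 2 channels of 1 array. The replicate 3 samples were both in Cy5 and the replicate 4 samples both in Cy3. In these pairs replicate number cannot be told apart from a shared array or dye. With the replicate number as a block, spot 13891 passed in the antenna (0.67, limma adjusted p = 0.011), as 1 of the 44 (2.27%) beside 0.093% of all spots. At an unadjusted p under 0.05 there were 8 members (18.2%) against 7.28% of all spots. This block gave each replicate number 1 effect shared by all 3 tissues, not by the antenna alone. In the first legs 0 passed against 38 of all spots (0.168%), with 1 (2.27%) at an unadjusted p under 0.05 against 6.68%. That one was spot 22251, at -0.38 ± 0.14 (SE) and a limma adjusted p of 0.529. All 4 male values lay above all 4 female values at 4 members in the antenna (9.09%, against 3.3% of all spots) and below them at 0 (against 1.76%). In the first legs they lay above at 0 (against 0.266%) and below at 1 (2.27%, against 0.217%). The median difference over the members was 0.006 in the antenna and 0.02 in the first legs.

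No member passed for the RIL number. Between RIL 89 and RIL 58 within the proboscis, limma called 0 members and 0 of all spots (0%), with 5 members (11.4%) and 1071 of all spots (4.74%) at an unadjusted p under 0.05. The leading members were spots 10107 (row 48, column 2) and 1758 (row 9, column 38), with fitted differences of 0.33 ± 0.10 and 0.36 ± 0.13, and spots 2492 and 16294 (row 76, column 169), with differences of -0.58 ± 0.23 and -0.43 ± 0.18 (SE). Their limma adjusted p-values were all 0.967.

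Replicates 3 and 4 differed from replicates 1 and 2 at 1 member (2.27%) and at 103 of all spots (0.456%), in a limma model that kept the RIL number, and at an unadjusted p under 0.05 at 6 members (13.6%) and 11% of all spots. The member was spot 13891, lower in replicates 3 and 4, with a difference of -0.67 ± 0.10 (SE) and a limma adjusted p of 0.00252. Next by p was spot 11545 (row 54, column 150), at -0.31 ± 0.08 (SE) and 0.156. The smallest p-values on the other side, at spots 6238 (row 30, column 3) and 22251, belonged to differences of 0.23 ± 0.11 and 0.21 ± 0.13 (SE), with limma adjusted p-values of 0.463 and 0.551. The labels do not say what the replicate numbers stand for. In each female group replicates 1 and 2 were RIL 58 and replicates 3 and 4 were RIL 89. Only the male samples therefore separate this comparison from the RIL number. The call at spot 13891 held in each of 24 fits without 1 sample and was lost when all arrays were given 1 dye effect (limma adjusted p = 0.207), when each sample was scaled to 1 median (0.12), and in the set of 8 (0.0531) and the set of 4 (0.678) alone.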

How the data were processed

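Each of the 24 samples was 1 dye channel of an array, and the authors deposited its scanner table, with mean and median intensity of signal and of local background per spot and a quality score that the file headers name. Scanner settings are not given in the sources used here. A value table that the authors deposited holds the natural log of the background-subtracted mean signal, as a comparison with the scanner values showed (largest difference 8.98e-08). In it, 166 blanks were at signals with no log. Its columns had medians of 2.78 to 5, so it was not scaled between samples.

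From these files, the mean signal minus the mean background, with negative values set to 0, was raised by 50, taken to log2 and quantile normalised. Samples with identical quality scores were taken as the channels of 1 array. Tests used limma 3.58.1 in R 4.3.3 (lmFit, eBayes with trend) over all spots, with p-values adjusted by Benjamini-Hochberg and called under 0.05. Terms were the 6 groups, RIL number, dye, array set and dye within array set, and the array was a random block (duplicateCorrelation). Fits were tested on simulated data. Male and female samples of the same replicate number were compared by their deviations from the group means. Only in the antenna did all 4 pairs correlate at over 0.1, though at replicates 1 and 3 the sexes there had different RIL numbers. The main fits used no pairing, and the replicate block, fitted as an alternative, covered all 3 tissues. Arrays give no count depth, and their number limits the precision. Spots were named by fixed criteria, which are the 2 leading spots in each direction of each comparison, and the 2 with the largest gap, highest mean, smallest gap or largest proboscis SD; any other spot was named with its values known. The 44 spots, and the tests, were chosen with earlier results of these data known. Alternatives covered background correction, scaling, offset, dim spots, dye and array terms, and samples left out.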

Additional observations from a re-analysis of the deposited data

Results flagged for a closer look

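In 132 groups of 4 samples, at the 22 named spots, 7 had 1 sample far from the other 3 by Dixon's criterion, where chance gives about 6.6. In male antenna replicate 4, the 1 male antenna sample in Cy3, spots 22251 and 5284 were low, at 8.477 and 8.448. The other male antenna samples, all in Cy5, had 9.729 to 9.934 and 9.855 to 9.926. Within the male antenna, this sample and its dye cannot be told apart. In the first legs both spots were lower in every Cy3 sample than in every Cy5 sample, while in the proboscis the dyes overlapped. Spots 22251 and 5284 are a pair that was found by like values over the 24 samples, this one included. Their low values are therefore not separate observations. Spot 16294 was also low in that sample, at 6.863 against 7.147 to 7.2.

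In female antenna replicate 3, the 1 female antenna sample in Cy5, spots 2572 and 5164 were high, at 7.061 and 6.628, against 6.741 to 6.783 and 6.426 to 6.457 in the others. Spot 11085 was high in male antenna replicate 3, at 7.541 against 7.364 to 7.383. Spot 11774 was high in female first legs replicate 1, at 11.61 against 11.26 to 11.27. None of these samples was from the proboscis.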

How the results depend on the processing

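The number of spots kept was 31 to 66 over other background corrections, offsets, scalings and gap thresholds of 1 and 0.5, except 21 when each sample was scaled to 1 median, and 42 to 61 when 1 sample was left out. Of the 44 spots, 13 were kept in all 11 other ways of making the values and 20 in all but 1. The gap of spot 6078 was 2.67 with median scaling and 2.39 with cyclic loess.

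The number of the 44 called for sex in the proboscis, 1, was the least stable result. It was 0 with median scaling, cyclic loess, the deposited value table, the array as a fixed block, sample quality weights or the set of 4 alone (added after seeing the data), 2 without the array block or the RIL term, 4 in the set of 8 alone and 15 with 1 dye effect for all arrays. With 1 sample left out it was 0 to 2. The median difference over the 44 kept its sign, at -0.47 to -0.06 over settings and -0.42 to -0.28 with 1 sample left out. The difference of the proboscis from the other tissues was called at 7 members with 1 dye effect, 1 in the set of 8 and 0 to 1 with 1 sample left out. For RIL number 1 was called with quality weights, spot 2492. For replicates 3 and 4 against 1 and 2, 0 were called with median scaling, 1 dye effect, the set of 8 or the set of 4, and 2 without the array block or with quality weights. The cause of these changes was not tested. No sex difference in the first legs was called in any setting.

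Signs turned as follows. For sex in the proboscis, spot 22251 was at -0.14 with median scaling, -0.10 with cyclic loess, -0.48 with 1 dye effect and -0.29 in the set of 4, and spot 9768 at -0.17, -0.105 and -0.46 with the first 3. For the difference from other tissues, spot 9768 was at -0.16 and -0.084, and spot 22251 at -0.13 and -0.26, with median scaling and 1 dye effect. Spot 11085 in the antenna was at -0.024 with cyclic loess, and spot 5284 in the first legs at 0.064 with median scaling. With the array as a fixed block, spots 10107 and 2492 for RIL number were at -0.0074 and 0.705. For replicates, spot 6238 was at -0.031 in the set of 4, and spot 22251 at -0.095 with median scaling and -0.072 in the set of 4.

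Male and female samples of the same replicate number deviated together in the antenna (4 of 4 pairs over 0.1). Of those pairs, replicate 2 shared an array and replicates 3 and 4 each shared a dye. In the proboscis and first legs they did not do so throughout, and the lowest correlation was -0.242. With the replicate number as a block, 0 members were called for sex in the proboscis (spot 2572 at -0.85, limma adjusted p = 0.111) and 1 in the antenna, spot 13891 (0.67). The block changed no other call of the sex and RIL comparisons. A fit on the 8 proboscis samples alone was not run, since sex is there the same term as dye within array set.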
